A study of Mus musculus with 23 samples.

Results

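The genes described here are 10 genes of antibody-producing cells: the kappa light chain constant gene Igkc, the heavy chain constant genes Ighm, Igha, Ighg1, Ighg2b, Ighg2c and Ighg3, the joining chain gene Jchain, the plasma cell chaperone gene Mzb1 and the B cell receptor gene Cd79a. They were taken by name from the 47643 gene identifiers measured in 23 PyMT tumors, and all 10 were found. No cut on measured values was used to choose them, but earlier results of these data were known. Across the tumors, 9 of the 10 had reads in at least 12 libraries, and Cd79a had a total of 1 read in the 23 libraries.

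B cells carry antibody in their membrane as a receptor, together with the signaling chains encoded by Cd79a and Cd79b. When they mature into plasma cells they lose the receptor chains and devote much of their RNA to secreted heavy and light chains. The heavy chain constant gene sets the isotype: IgM comes before class switching, IgG subclasses circulate, and IgA is made largely for mucosal and glandular surfaces, where the J chain links IgA or IgM units so that the polymeric immunoglobulin receptor can carry them across the epithelium.

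Tumors of female mice with the polyoma middle T oncogene (PyMT), a transgenic model of mammary carcinoma on a C57BL/6 background, were dissociated. Their RNA was profiled by 3′ mRNA sequencing in 2 experiments. In IL-38 neutralization, PyMT WT mice received weekly injections of 100 µg over 5 weeks from a tumor size of 0.6 cm onwards: human IgG1 as isotype control (IgG, n = 5) or the in-house antibody e04 to IL-38, a cytokine of the IL-1 family (anti-IL-38, n = 6). In γδ-TCR blockage, treatment began at 13 weeks of age with 500 µg followed by weekly doses of 200 µg, and also lasted 5 weeks: WT mice received hamster IgG (WT_IgG, n = 4), and mice lacking IL-38 received hamster IgG (KO_IgG, n = 4) or the anti-γδ TCR antibody UC7-13D5 (KO_gdTCR, n = 4). The KO strain was C57BL/6N and was crossed to PyMT mice, and WT mice given the γδ TCR antibody were not analysed here. The promoter of the transgene, and whether each sample was 1 tumor of 1 mouse, were not given in any source used here, so p-values measure only the spread between these samples.

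Depth ranged from 6273049 to 15879164 reads on genes per library. The 4 KO_gdTCR libraries and KO_IgG replicate 4 stood apart from the other 18: they were shallower (at most 8794202 reads, against at least 10138353), and Gm42418, a gene model over a ribosomal RNA repeat, took 11.3% to 20.1% of their reads, against 2.62% to 5.70%. Processed pseudogenes took 1.31% to 1.98% of their reads, against 0.094% to 0.19%. Luminal epithelial genes such as Cdh1 and Epcam were abundant in every tumor (summed level of 8 genes 1532 to 4014 CPM, a gene's reads relative to the depth of its library). Il1f10, the gene of IL-38, had 0 reads in all 23 libraries, WT included, so the knockout label could not be checked. All KO_gdTCR libraries stood apart and only 1 of their controls did, so γδ-TCR blockade and that difference in libraries cannot be told apart. In RNA of dissociated tumors, fewer cells of a type and less RNA per cell cannot be told apart either.

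Because the libraries read the 3′ ends of transcripts, the ends of the secreted heavy chain forms are shown here. Each line gives the last 60 coding bases, stop codon included, 5′ to 3′, of a secreted form in GENCODE M21 on GRCm38, and all 6 lie on the minus strand of chromosome 12. In capitals is the cysteine codon before the last codon, which in IgM and IgA lies in the tailpiece that pairs with the J chain. The lines are of Ighm (chr12:113420867-113420926), Igha (chr12:113258768-113258827), Ighg1 (chr12:113328976-113329035), Ighg2b (chr12:113306389-113306448), Ighg2c (chr12:113287389-113287448) and Ighg3 (chr12:113359665-113359724).
Ighm: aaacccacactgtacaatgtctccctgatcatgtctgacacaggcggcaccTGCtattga
Igha: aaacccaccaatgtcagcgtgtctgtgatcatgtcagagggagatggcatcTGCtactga
Ighg1: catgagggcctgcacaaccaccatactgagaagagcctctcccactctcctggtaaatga
Ighg2b: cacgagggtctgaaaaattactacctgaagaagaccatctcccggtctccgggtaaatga
Ighg2c: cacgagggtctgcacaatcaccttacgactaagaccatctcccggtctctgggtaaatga
Ighg3: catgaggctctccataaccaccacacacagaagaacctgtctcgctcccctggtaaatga

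The cysteine codon was present in Ighm and Igha and absent from the 4 IgG genes. Compared base by base without gaps, Ighm and Igha had 41 of 60 positions in common, and the IgG genes shared 41 to 49 with each other. None of the 226 windows of 75 bases in the last 300 bases of each secreted transcript occurred in another of the 6, so exact reads of that length separate the isotypes there. Reads with errors, and reads from elsewhere in the IgG genes, can still be assigned to the wrong subclass, and the subclass values carry that uncertainty. The gene totals do not separate secreted from membrane forms.

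The kappa light chain, Igkc (chr6:70726435-70726966), which pairs with every heavy chain isotype, had the most reads of the 10 genes, 11651 over the 23 libraries. In IgG tumors it was at 7.84, 9.53, 5.12, 22.3 and 2.98 CPM, and in anti-IL-38 tumors it ran from 3.88 through a median of 15.02 to 43.4 CPM. WT_IgG tumors had 13.9, 61.9, 26.8 and 12.4 CPM. KO_IgG tumors had 18.5, 25.9, 44.4 and, in replicate 4, 425 CPM, and KO_gdTCR tumors had 177, 75.4, 38.4 and 97.9 CPM. From lowest to highest median the order was IgG, anti-IL-38, WT_IgG, KO_IgG, KO_gdTCR, but every group overlapped its neighbor in that order. The lowest and highest tumors differed 143-fold.

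Igha (chr12:113254830-113260236), the heavy chain of IgA, was low in both control groups and high in IL-38 KO tumors. IgG tumors had 5.67, 2.96, 3.42, 13.2 and 1.56 CPM, and anti-IL-38 tumors ran from 3.65 through a median of 12.5 to 37.7 CPM. WT_IgG tumors had 8.26, 7.10, 19.5 and 5.44 CPM, against 29.0, 21.7, 35.3 and 23.5 CPM in KO_IgG tumors and 23.8, 21.3, 52.3 and 45.6 CPM in KO_gdTCR tumors. All 8 IL-38 KO tumors lay above all 9 tumors of the control groups, the lowest at 21.3 CPM and the highest control at 19.5 CPM. At this boundary the 95% counting intervals overlapped. They were 18.3 to 24.6 CPM in KO_gdTCR replicate 2, 19.2 to 24.4 CPM in KO_IgG replicate 2 and 17.2 to 22.1 CPM in WT_IgG replicate 3. These KO tumors include the 5 libraries that stand apart, and the 5 IgG controls are from the other experiment. How many genes separate these tumors in the same way was not counted. All 4 KO_IgG tumors lay above all 4 WT_IgG tumors, as in 3.66% of the 16563 genes tested. Of the 6 anti-IL-38 tumors, replicates 2 and 4 lay above every IgG tumor and the other 4 lay within the range of the IgG tumors. Igha was not high in KO_IgG replicate 4, which gave 4.36% of its reads over the 23 libraries.

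Ighm (chr12:113418558-113422730), the heavy chain of IgM and of the receptor of unswitched B cells, followed another order. It was at 10.6, 6.93, 8.26, 9.72 and 4.84 CPM in IgG tumors, between 4.36 and 15.7 CPM (median 8.44) in anti-IL-38 tumors, and at 18.6, 18.9, 15.2 and 18.4 CPM in WT_IgG tumors. In KO_IgG replicates 1 to 3 it was at 7.84, 8.72 and 11.9 CPM, below every WT_IgG tumor, whereas replicate 4 had 127 CPM. KO_gdTCR tumors had 22.7, 59.1, 14.98 and 15.4 CPM.

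The 4 IgG heavy chain genes were low in most tumors and high in a few. Ighg1 (chr12:113325240-113330523) had no read in 4 of the 5 IgG tumors and 2 of the 6 anti-IL-38 tumors, where 3 reads, the upper limit that a count of 0 allows, come to 0.217 to 0.296 CPM. It reached 4.45 CPM in WT_IgG replicate 2, 4.62 CPM in KO_gdTCR replicate 1 and 45.0 CPM in KO_IgG replicate 4. Ighg2b (chr12:113302965-113307933) had reads in every tumor and exceeded 5 CPM in 3, KO_IgG replicate 4 with 51.5 CPM and KO_gdTCR replicates 1 and 4 with 10.9 and 5.34 CPM. Ighg2c (chr12:113285325-113288932), the subclass gene of C57BL/6 mice, was the most uneven member: it was at 18.1 CPM in WT_IgG replicate 2, 6.94 CPM in KO_IgG replicate 2, 119 CPM in KO_IgG replicate 4 and 62.3 and 32.0 CPM in KO_gdTCR replicates 1 and 4, and had at most 4.44 CPM in the other 18 tumors. Ighg3 (chr12:113356224-113361232) was scarce, with 87 reads in all. Its highest level was 3.62 CPM in KO_gdTCR replicate 2, and it had 0 reads in KO_IgG replicate 4, where the other subclasses peaked.

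Jchain (chr5:88519809-88527891), whose product joins IgM and IgA units, was at 1.94, 0.144, 0.615, 1.27 and 0 CPM in IgG tumors and ran from 0.296 through 1.31 to 3.83 CPM in anti-IL-38 tumors. WT_IgG tumors had 1.13, 3.43, 2.30 and 0.790 CPM. KO_IgG tumors had 5.07, 3.55, 3.15 and 51.6 CPM and KO_gdTCR tumors 11.7, 9.11, 5.58 and 5.34 CPM. In IL-38 KO tumors only KO_IgG replicate 3 fell below the highest WT_IgG tumor. Mzb1, an endoplasmic reticulum chaperone for antibody chains, had 1 to 29 reads per library and was at 0.137 to 3.36 CPM, with the highest value again in KO_IgG replicate 4. Cd79a (chr7:24897381-24902197) had its only read in IgG replicate 1, so no fold change is given for it, and in the other 22 libraries 3 counts allow up to 0.189 to 0.478 CPM.

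**Figure D1:**
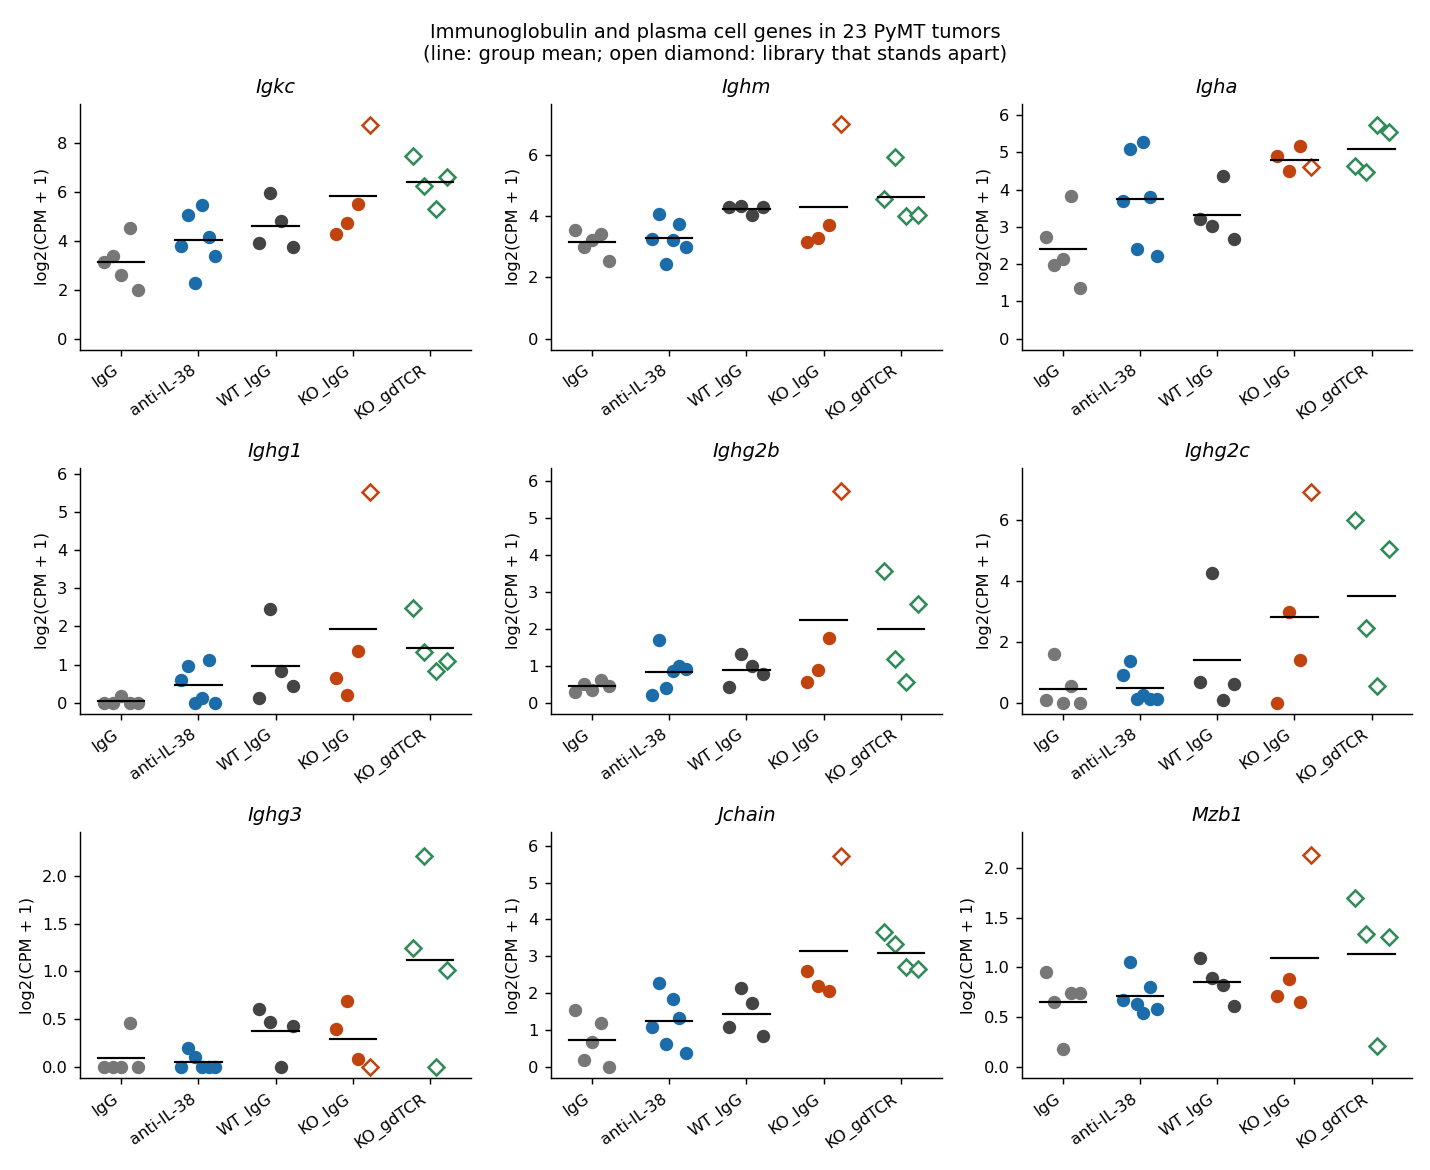
Level of 9 genes in each of 23 tumors, as log2(CPM + 1) on the y axis, by group on the x axis; each point is 1 tumor, lines are group means, and open diamonds are the 5 libraries that stand apart. Igha is the gene in which all 4 KO_IgG tumors (21.7 to 35.3 CPM) lie above all WT_IgG tumors (5.44 to 19.5 CPM), while KO_IgG replicate 4 is the highest point for Igkc, Ighm, Ighg1, Ighg2b, Ighg2c, Jchain and Mzb1.

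KO_IgG replicate 4 held 31.5% of all Igkc reads of the series, 65.1% of Ighg1, 56.7% of Ighg2b, 45.0% of Ighg2c and 39.3% of Jchain. Against the highest of the other 3 KO_IgG tumors it was 9.58-fold higher for Igkc, 10.7-fold for Ighm, 28.6-fold for Ighg1 and 10.2-fold for Jchain, and 0.667-fold for Igha. The lambda light chain gene Iglc1 was at 33.4 CPM there and at most at 1.27 CPM elsewhere. The 18 B cell genes summed to 158 CPM, against 145 to 157 CPM in the other KO_IgG tumors and 76.1 to 134 CPM in the other 4 libraries that stand apart. That sum can hide scarcer genes, since Blnk had 853 reads there, Pax5 39, Cd79b 17 and Ms4a1 0. The 39 reads of Pax5 were its most in any library. T cell genes summed to 33.3 CPM there, to 16.2 to 24.6 CPM in the other KO_IgG tumors and to 20.2 to 46.5 CPM in WT_IgG tumors. Lymphoid tissue genes (10 genes, among them Cxcl13 and Glycam1) summed to 10.4 CPM there and to 3.86 to 12.6 CPM in the other KO_IgG tumors. Their part in the antibody gene levels was not tested.

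Igkc and the 6 heavy chain genes together came to 9.75 to 46.5 CPM in IgG tumors, 12.99 to 90.6 CPM in anti-IL-38, 38.2 to 112 CPM in WT_IgG, 56.7 to 792 CPM in KO_IgG (at most 97.3 CPM without replicate 4) and 107 to 302 CPM in KO_gdTCR tumors. The isotype makeup, as shares of the heavy chain constant reads (91 to 3161 per tumor), also differed between tumors. The IgA share (Igha) was 34.1%, 24.0%, 28.2%, 54.3% and 23.1% in IgG tumors and ran from 31.6% through a median of 50.7% to 80.1% in anti-IL-38 tumors. It was 29.1%, 14.1%, 53.4% and 21.1% in WT_IgG tumors, 75.9%, 55.6%, 66.8% and 6.42% in KO_IgG tumors, and 18.97%, 23.3%, 75.8% and 45.4% in KO_gdTCR tumors. The 95% Wilson interval of the share, which covers counting error only, ran from 15.6% to 32.7% in IgG replicate 5, the tumor with the fewest heavy chain reads (91), and from 5.62% to 7.33% in KO_IgG replicate 4.

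Mean IgA share was 53.6% ± 16.3 (SD, n = 6) in anti-IL-38 and 32.7% ± 12.8 (SD, n = 5) in IgG tumors, a difference of 20.8 percentage points (two-sided exact permutation test, p = 0.0476, 0.143 after Benjamini-Hochberg adjustment over 12 tests). IgM share (Ighm) went the other way, 39.7% ± 14.8 (SD, n = 6) against 60.01% ± 12.5 (SD, n = 5), with an exact permutation p = 0.0433 (adjusted 0.143). The shares of a tumor add up to the whole and the mean IgG share was 6.75% and 7.24%, so this largely mirrors the IgA difference. The level of Ighm itself was not lower with anti-IL-38 (log2 fold change 0.20). In KO_IgG tumors IgM share was 20.5%, 22.4%, 22.5% and 34.7%, below the 37.5% to 71.4% of all WT_IgG tumors. That exact permutation p of 0.0286 is the smallest that 4 against 4 can give, and was 0.143 after adjustment. The mean IgA share of 51.2% ± 31.0 (SD, n = 4) against 29.4% ± 17.1 (SD, n = 4) did not separate the genotypes (exact permutation p = 0.314, adjusted 0.539). The difference was 21.8 points with all tumors, 36.7 points without KO_IgG replicate 4 and 13.6 points without KO_IgG replicate 1. The log2 ratio of Jchain to Cd79a reads, with 1 added to each, is in effect a count of Jchain reads that also moves with depth, because Cd79a had 1 read. It was 6.51 ± 1.54 in KO_IgG and 4.39 ± 1.00 in WT_IgG tumors (SD, n = 4 each; exact permutation p = 0.0286, adjusted 0.143), and in the other 3 comparisons its exact permutation p was 0.111, 0.165 and 0.686. For γδ-TCR blockade and for WT_IgG against IgG, neither share differed beyond the spread (exact permutation p from 0.603 to 0.971).

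**Figure D2:**
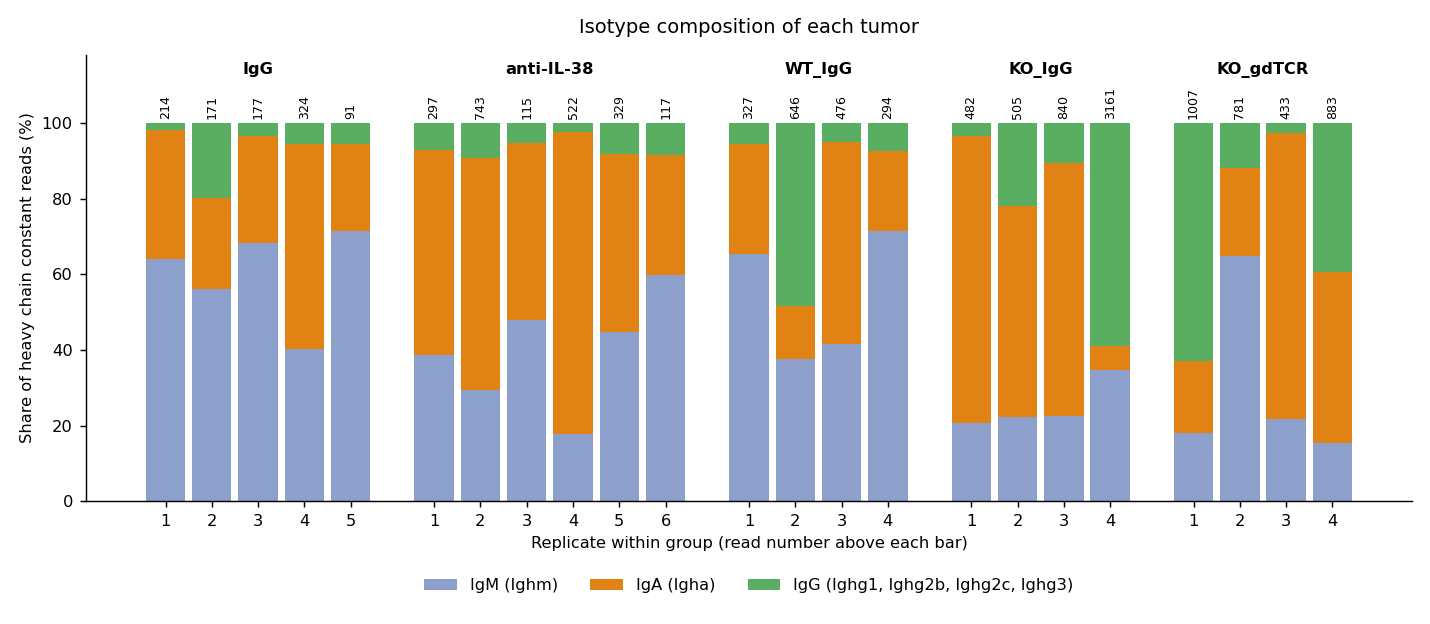
Stacked bars of the share (%) of heavy chain constant reads from IgM (Ighm), IgA (Igha) and the 4 IgG genes in each tumor, with the number of reads above each bar. IgA takes most reads in KO_IgG replicates 1 to 3 (55.6% to 75.9%), and IgG takes most in KO_IgG replicate 4 (58.9%) and KO_gdTCR replicate 1 (63.0%). IgA also takes most in anti-IL-38 replicates 1, 2 and 4 (54.2%, 61.5% and 80.1%) and KO_gdTCR replicate 3 (75.8%). Among controls it does so in IgG replicate 4 (54.3%) and WT_IgG replicate 3 (53.4%).

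IgG genes gave 1.87% to 19.9% of heavy chain reads in IgG tumors and 2.30% to 9.15% in anti-IL-38 tumors, and were highest in 4 tumors, WT_IgG replicate 2 (48.5%), KO_IgG replicate 4 (58.9%) and KO_gdTCR replicates 1 and 4 (63.0% and 39.3%). Ighg2c gave 74.1%, 55.3%, 78.7% and 81.0% of the IgG reads in those 4 tumors. Its share was as high in IgG replicate 2 (82.4%) and KO_IgG replicate 2 (81.1%), and ran from 0% through a median of 28.9% to 82.4% over the 23 tumors. Lambda light chains (Iglc1, Iglc2 and Iglc3) gave 0% to 13.8% of light chain constant reads. Variable segments lie at the other end of the transcript from the reads and were barely seen: 24 of 344 listed segments had a read, 63 reads in all, led by Iglv1 (14 reads), Igkv12-44 (8) and Ighv3-6 (5), and 20 of the 63 were in KO_IgG replicate 4.

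Across the 23 tumors, on log2(CPM + 1), the members moved with Igkc to different degrees. Jchain followed it most closely (Pearson's r = 0.92, Spearman's rho = 0.89). Both permutation p-values, adjusted over the 8 relations computed, were at most 2e-05. Leaving out the tumors farthest from the Igkc median, KO_IgG replicate 4 and KO_gdTCR replicate 1, gave r = 0.85, and the experiments alone gave r = 0.79 (11 tumors) and 0.90 (12 tumors). For Igha the relation was strong in the neutralization experiment (r = 0.93, n = 11) and weak in the blockage experiment (r = 0.37, n = 12), with r = 0.73 and rho = 0.80 over all 23 (permutation p = 5e-05 and 1e-05, adjusted 6.67e-05 and 2e-05) and r = 0.81 without the farthest tumors. For Ighm r was 0.80 and rho 0.74 (permutation p = 1e-05 and 0.0001, adjusted 1.6e-05 and 0.00016), with r = 0.71 in each experiment and 0.68 without the farthest tumors. Mzb1 had r = 0.72 (permutation p = 0.00013, adjusted 0.000149) and rho = 0.53 (permutation p = 0.00966, adjusted 0.011), but r = 0.44 without the farthest tumors and 0.33 in the 18 libraries that do not stand apart, so that relation rests on a few tumors. For Ighg1, Ighg2b and Ighg2c r was 0.82, 0.84 and 0.83, with 0.46, 0.63 and 0.40 in the neutralization experiment, 0.88, 0.91 and 0.89 in the blockage experiment and 0.71, 0.74 and 0.68 without the farthest tumors, and for the scarce Ighg3 it was 0.44 (permutation p adjusted 1.6e-05 for the first 3 and 0.0397 for Ighg3). The smallest p these permutations can give is 1e-05. Permutation p-values were computed only over all 23 tumors, where differences between groups, experiments and libraries also enter the relation. All these levels share the depth of their library.

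**Figure D3:**
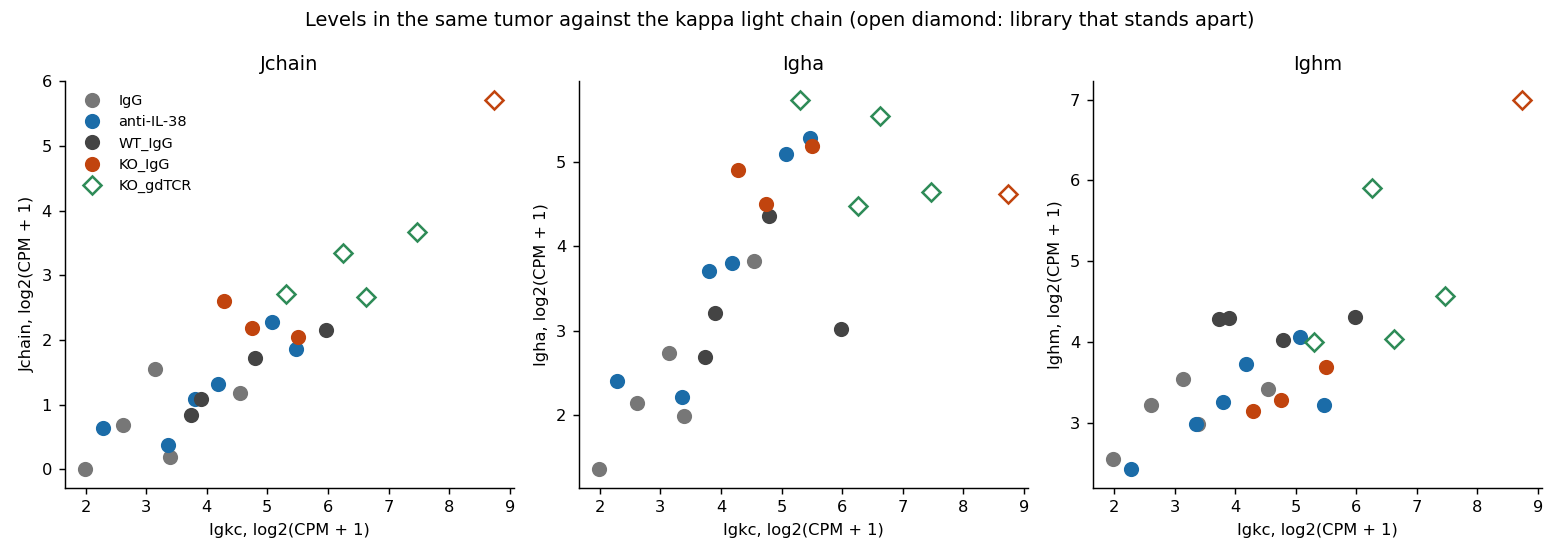
Levels of Jchain, Igha and Ighm (y axes) against Igkc (x axis) in the same tumor, all as log2(CPM + 1), colored by group, with open diamonds for the 5 libraries that stand apart. Jchain follows Igkc over the whole range (r = 0.92), whereas KO_IgG replicate 4, with the highest Igkc (425 CPM), has an Igha level of 23.5 CPM, within the range of the other KO_IgG tumors.

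Among 14715 genes with a mean of at least 1 CPM that are neither immunoglobulin segments nor members, those most like Igkc by Spearman's rho over the 23 libraries were Hoxc6 (0.81), Gpat3 (0.79), Epc2, Gm8242, Zfat, Tead2, Utrn and Gm7027 (0.76 for the last). Of the members, Jchain (0.89), Ighg1 and Ighg2b (both 0.83) were above Hoxc6, and Igha (0.80), Ighm (0.74), Ighg2c (0.73), Mzb1 (0.53) and Ighg3 (0.44) were below it. In the 18 libraries that do not stand apart the 8 genes were at 0.60 to 0.70 and ranked 21.5 to 149.5, so other genes, not named here, were closer. There Igha was at 0.83, Jchain at 0.81, Ighg2b at 0.74, Ighg1 at 0.71, Ighm at 0.60, Ighg2c at 0.54, Ighg3 at 0.39 and Mzb1 at 0.30. The same list could not be made for Cd79a, which had 1 read. For Igha, added after the values were seen, Jchain (0.83) and Igkc (0.80) were again above the closest other gene, Cd7 (0.78). In the 18 libraries the closest other gene was Mal2 (0.82), beside 0.86 for Jchain and 0.83 for Igkc.

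Tumors of 1 group differed more in 7 of the 10 members than in most genes. The SD of log2(CPM + 1) within groups was 1.25 for Igkc, 0.91 for Ighm, 0.91 for Igha, 0.92 for Jchain, 1.15 for Ighg1, 1.16 for Ighg2b and 1.81 for Ighg2c, against a median of 0.33 over 14723 genes with a mean of at least 1 CPM. Of these genes, 99.2% had a smaller SD than Igkc and 97.2% a smaller SD than Igha. Without KO_IgG replicate 4 the SD of Ighm fell to 0.54, of Jchain to 0.61, of Ighg1 to 0.63 and of Ighg2b to 0.70, against a median of 0.31. That of Igkc was then 0.99, of Ighg2c 1.48 and of Igha 0.93. Ighg1 was ranked only through that tumor, since it averaged 2.78 CPM with it and 0.857 CPM without it. Mzb1 (0.43, and 0.33 without KO_IgG replicate 4), Ighg3 (0.42) and Cd79a (0.023) averaged under 1 CPM and were not ranked.

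Neutralization of IL-38 was compared with isotype control by limma on log2(normalized value + 1), over 16002 genes with a mean of at least 5. All 7 members tested had a log2 fold change above 0 in anti-IL-38 tumors, with a median of 0.86, against 0.00 over all genes, but none passed the adjusted threshold. For Ighg2c the log scale decided the sign, since its mean was 6.30 normalized counts in anti-IL-38 and 6.44 in IgG tumors. Ighg2b passed the mean of 5 only through anti-IL-38 tumors (11.7 against 4.63 normalized counts), so the filter favored a rise for it. Igha was highest, at 224 ± 191 (SD, n = 6) normalized counts against 66.7 ± 56.2 (SD, n = 5), a log2 fold change of 1.58 (SE 0.64, limma adjusted p = 0.433). Jchain followed with 1.405 (SE 0.84), Igkc with 1.02 (SE 0.57), Ighg2b with 0.86 (SE 0.58), Ighg2c with 0.50 (SE 0.98), Mzb1 with 0.27 (SE 0.47) and Ighm with 0.20 (SE 0.29), at limma adjusted p-values from 0.532 to 0.872. Before adjustment, 1 of 7 members, Igha, was higher at p under 0.05, beside 5.61% of all genes. No gene of the transcriptome passed with limma or edgeR, 75 did with DESeq2, none of them a member, and 1682 had an unadjusted limma p under 0.05. Genes of other cell types had medians above 0 as well: 0.80 for T cell genes (8 of 10 above 0), 0.66 for luminal (8 of 8), 0.55 for fibroblast (6 of 6) and 0.43 for basal genes (4 of 6), with 0.12 for endothelial, 0.23 for skeletal muscle and values of -0.11, -0.19 and -0.25 for adipocyte, macrophage and neutrophil genes. Their part in the values of the members was not tested. Igha did not separate the groups, since anti-IL-38 replicates 3 and 6, at 4.28 and 3.65 CPM, lay within the range of the controls.

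IL-38 KO tumors were compared with WT tumors under the same control IgG. Igha was higher in all 4 KO_IgG than in all 4 WT_IgG tumors, at 326 ± 74.6 against 117.7 ± 74.3 normalized counts (SD, n = 4 each), a log2 fold change of 1.61 (SE 0.34). It was the only 1 of 8 members tested whose groups did not overlap in that direction, beside 3.66% of all 16563 genes. The limma adjusted p was 0.210, the edgeR adjusted p 0.254 and the DESeq2 adjusted p 0.00903, and over 17 alternatives it ran from 0.00903 to 0.523. DESeq2 called 1.31% of genes higher, and of the 2 members it gave an adjusted p for (Igha and Mzb1), 1. For the other 6 tested it gave none. Without WT_IgG replicate 3 the limma log2 fold change of Igha was 1.99 with an adjusted p of 0.0352, and without KO_IgG replicate 4 it was 1.67 with an adjusted p of 0.106.

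The values of the other members turned on KO_IgG replicate 4. The 8 tested members had a median log2 fold change of 1.48, against 0.01 over all genes, and all 8 were above 0; without that tumor the median was 0.11 and 4 of 8 were above 0. Igkc went from 1.27 (SE 0.86) to 0.28 (SE 0.49), Ighg2b from 1.74 to 0.34 and Ighg2c from 1.68 to -0.06. Jchain went from 2.14 (SE 0.81) to 1.198 (SE 0.49), with limma adjusted p-values of 0.341 and 0.303. Ighm changed sign, from 0.05 (SE 0.72) to -0.90 (SE 0.20, limma adjusted p = 0.108 without replicate 4). Before adjustment, 2 of 8 members, Igha and Jchain, were higher at p under 0.05, beside 6.73% of all genes. Over all genes limma called 1, edgeR 0 and DESeq2 298, and 2010 had an unadjusted limma p under 0.05.

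With both experiments together, Igha was at 265 ± 158 (SD, n = 10) normalized counts in the tumors with IL-38 neutralized or absent and at 89.4 ± 66.1 (SD, n = 9) in the controls. Its log2 fold change was 1.55 (SE 0.46), with a limma adjusted p of 0.283 and a DESeq2 adjusted p of 0.0373. With the experiment as a term, it was 1.59 (limma adjusted p = 0.143). The effects of antibody and knockout on Igha differed by -0.04 (SE 0.86, limma adjusted p = 0.995), an estimate whose error is too wide to call them alike. For Jchain the log2 fold change was 1.62 (SE 0.75, limma adjusted p = 0.457).

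**Figure D4:**
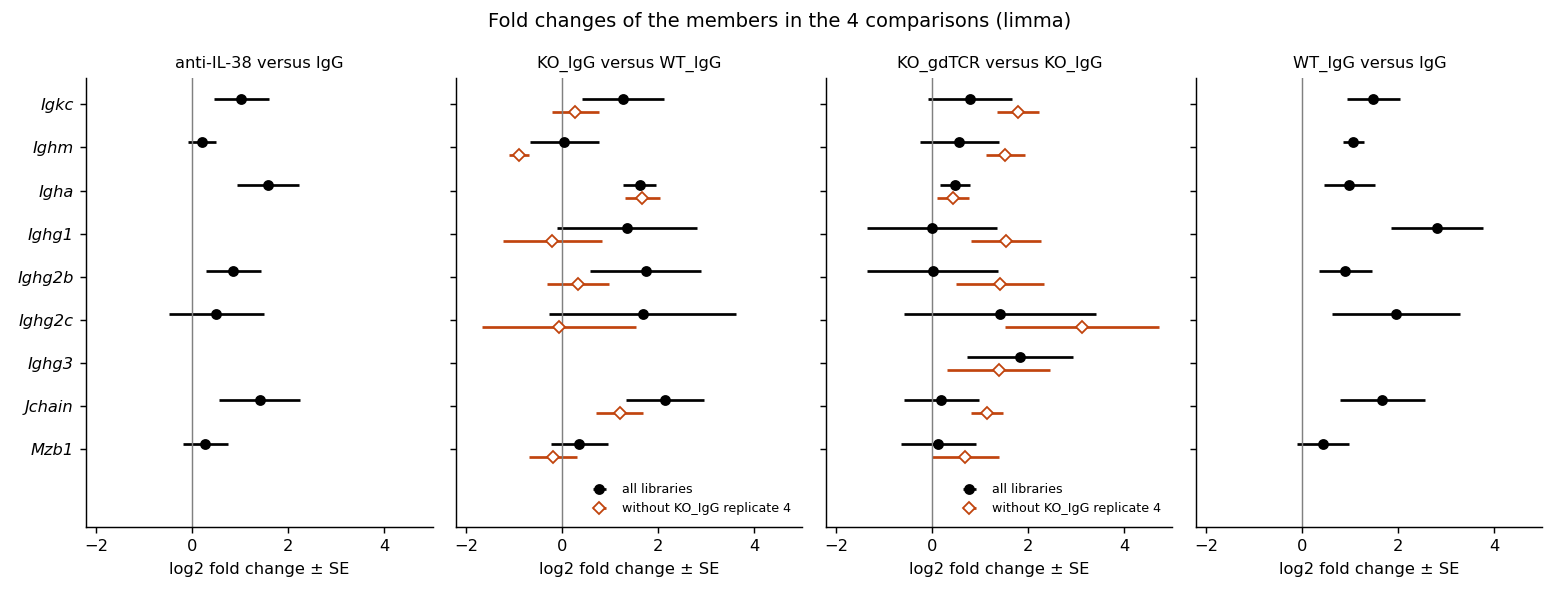
Log2 fold change ± SE (x axis) of the tested members (y axis) in 4 comparisons, fitted by limma with all libraries (filled circles) and, for knockout and blockade, without KO_IgG replicate 4 (open diamonds). Igha is at 1.58 for the antibody and 1.61 for the knockout, and is the member that KO_IgG replicate 4 moves least in the knockout comparison (1.67 without it).

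γδ-TCR blockade was compared within IL-38 KO tumors over 16481 genes. None of the 9 members tested passed the limma threshold with all libraries, and none had an unadjusted limma p under 0.05 in the direction of a rise, beside 12.7% of all genes. Igha had a log2 fold change of 0.48 (SE 0.32, limma adjusted p = 0.433) and Ighg3 of 1.82 (SE 1.10, limma adjusted p = 0.374). For Igkc, Ighm, Ighg1, Ighg2b, Ighg2c and Jchain the scale decided the sign. The mean of Igkc was lower in KO_gdTCR tumors, at 993 ± 609 against 1214 ± 1894 normalized counts (SD, n = 4 each), while its log2 fold change was 0.79 (SE 0.87), and edgeR gave -0.30. Ighm was at 0.56 and -0.37, and Jchain at 0.19 and -0.86, by limma and edgeR.

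Without KO_IgG replicate 4, Igkc, Ighm and Jchain were higher in KO_gdTCR tumors, with log2 fold changes of 1.79 (SE 0.44, limma adjusted p = 0.0176), 1.52 (SE 0.41, limma adjusted p = 0.0306) and 1.14 (SE 0.34, limma adjusted p = 0.0470). These were 3 of 9 members, beside 9.45% of all genes called higher in that fit and 2357 called in all. Then all treated libraries stood apart and all controls did not, so the 2 differences cannot be told apart. Summed levels of 3 lists were lower in the same 5 libraries, whichever their treatment: the 7 genes of antibody receptors and transport summed to 196 to 333 CPM there and 628 to 1407 CPM in the other 18, the 8 macrophage genes to 726 to 1216 and 1655 to 3200 CPM, and the 5 adipocyte genes to 60.9 to 319.5 and 1054 to 2603 CPM. The adipocyte sum was carried by Lpl, at 43.4 to 164 CPM in the 5 libraries and at least 967 CPM in the other 18, while Adipoq was at 5.72 to 48.7 and 0.317 to 51.4 CPM. Their part in the antibody gene values was not tested.

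The control groups of the experiments also differed. In WT_IgG against IgG tumors, which differ in experiment, antibody, dose and start of treatment together, all 8 members tested were higher, with a median log2 fold change of 1.28 against 0.02 over all genes. Ighm was higher in all 4 WT_IgG tumors than in all 5 IgG tumors (208 ± 21.7, SD, n = 4, against 101.4 ± 26.9 normalized counts, SD, n = 5), 1 of 8 members beside 3.57% of genes. Its log2 fold change was 1.07 (SE 0.23, limma adjusted p = 0.0884, DESeq2 adjusted p = 0.00201). Before adjustment 3 of 8 members, Igkc (1.48, SE 0.56), Ighm and Ighg1 (2.81, SE 0.95), were higher, beside 9.49% of genes. Ighg1 (16.9 against 0.356 normalized counts in IgG tumors) and Ighg2b (10.4 against 4.63) passed the mean of 5 only through WT_IgG tumors. The filter thus favored a rise for both, and their direction says little. None of the 8 passed the limma threshold, beside 0.0994% of genes. Cxcl13, a B cell chemoattractant, had a log2 fold change of 3.12 (SE 0.68, limma adjusted p = 0.0912, DESeq2 adjusted p = 0.000871), and Adipoq, Fabp4 and Cidec of adipocytes passed the limma threshold. In the 7 lists of the next paragraph, DESeq2 called Cxcl12, Cxcl13 and Fcer1g of 44 tested genes, and limma called 0. Before adjustment 3 of the 44 were higher and 7 lower at a limma p under 0.05.

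Other genes of the pathway were read from 7 lists of 70 genes. The smallest, of other immunoglobulin constant genes, had 1, 2 and 2 of 5 genes tested, with medians of 0.72, 1.996 and -1.41 for antibody, knockout and blockade. For knockout and blockade the genes tested passed the mean of 5 only through KO_IgG replicate 4, so both medians rest on that tumor. In the knockout comparison it had 406 normalized counts of Iglc1 and 66.3 of Iglc3, against 12.8 and 3.78 in KO_IgG replicate 3. None of the 70 genes passed the limma or edgeR threshold in the antibody, knockout or blockade comparison. In these, 9, 8 and 15 of the 46 or 47 tested had an unadjusted limma p under 0.05. DESeq2 called 1, 1 and 5. In the plasma cell list, 11 of 15 tested genes were higher with anti-IL-38 and 10 of 15 in IL-38 KO tumors, with medians of 0.10 and 0.13. Txndc5, a disulfide isomerase of the secretory pathway, was the gene DESeq2 called in both, with limma log2 fold changes of 0.99 (SE 0.25) and 0.93 (SE 0.21) and DESeq2 adjusted p-values of 0.0465 and 0.0126; the limma adjusted p-values were 0.373 and 0.210. Xbp1, the transcription factor of secretory cells and the most abundant gene of the list (615 CPM), was at 0.73 (SE 0.33) and 0.53 (SE 0.20), with limma adjusted p-values of 0.461 and 0.341. Sec11c, Ell2 and Sdc1 followed it in abundance, and all of these are also expressed by epithelium.

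Genes that define B cells were near the floor. Ms4a1 had at most 4 reads in a library and Cd79b at most 28. The most abundant genes of the B cell list, Blnk, Cd37, Ebf1 and Bach2, are also expressed by other cells. With anti-IL-38 1 of 11 tested genes of that list was higher (median -0.21), and in IL-38 KO tumors 3 of 10 (median -0.16). Cd22 and Cd37 had log2 fold changes of -1.74 and -2.38 on blockade (limma adjusted p = 0.0910 and 0.0657, DESeq2 adjusted p = 0.0159 and 0.000613), in the libraries in which macrophage genes were low. In the germinal center list (S1pr2, Bcl6, Fas and Gcsam were the most abundant) 3 of 7 genes could be tested and in the lymphoid tissue list (among them Ccr7, Glycam1 and Cxcl13) 5 or 6 of 10, with 0 limma calls in these 3 comparisons.

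Pigr, which carries polymeric IgA and IgM across epithelium, was at 1073 ± 461 (SD, n = 6) normalized counts in anti-IL-38 and 551 ± 302 (SD, n = 5) in IgG tumors (log2 fold change 1.00, SE 0.37, limma adjusted p = 0.425). Between genotypes it was at 945 ± 430 and 929 ± 369 (SD, n = 4 each; log2 fold change 0.01, SE 0.36), while Igha was at 326 and 117.7 in the same tumors. Of the homing and survival genes, Cxcl12, a plasma cell attractant, was at 0.84 (SE 0.55) with anti-IL-38 and -0.25 (SE 0.21) in IL-38 KO tumors, and Cxcr4, its receptor, was the most abundant of the list (84.8 CPM). Ccl28, which attracts IgA-producing cells, averaged 0.701 CPM. Of the 59 genes of 9 other cell types, none passed the limma or edgeR threshold in the antibody, knockout or blockade comparison, DESeq2 called 1, 3 and 6, and an unadjusted limma p under 0.05 was found for 6, 11 and 10. In IL-38 KO against WT tumors the median log2 fold change was -0.53 for T cell genes, -0.40 for macrophage, -0.21 for neutrophil, 0.12 for luminal, -0.32 for basal, 0.10 for fibroblast, 0.28 for endothelial and -1.06 for adipocyte genes. Skeletal muscle genes were at 2.26, with a summed level of 10.9 to 379 CPM in KO_IgG against 2.001 to 66.7 CPM in WT_IgG tumors, and lowest among KO_IgG tumors in replicate 4. The part of these cells in the values of Igha was not tested.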

How the data were processed

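RNA of dissociated tumors was sequenced from the 3′ end (QuantSeq, 75 cycles). The authors deposited 2 tables of normalized counts, a signal equal to read counts divided by a size factor per library (19 and 8 libraries, 4 of them in both, normalized separately, so tests stayed within a table). The submitters' processing notes name STAR, HTSeq, DESeq2 and GRCm39, with no roles, the study's methods a QuantSeq pipeline, and neither gives the strand used in counting. Whole reads were recovered for 100% of values (tolerance 0.0001%) and gave CPM, isotype shares and depth (6273049 to 15879164 reads). In WT_IgG replicate 1 a read was worth 0.996, so its values look almost like raw counts. There were 0 unused sample columns. Intervals and floors cover counting error only, since reads carry no molecular identifiers.

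Positions and sequences came from GENCODE M21 on GRCm38, and no coordinates were converted. Mzb1 overlaps SPATA24 and Igkc overlaps Gm30211 (2 reads in 23 libraries) on the same strand.

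Groups were compared by limma 3.58.1 on log2(normalized value + 1) for genes with a mean of at least 5, with Benjamini-Hochberg adjustment over all genes and a threshold of 0.05, and shares by exact permutation tests. Fold changes on that scale understate the change of low genes. edgeR 4.0.16 and DESeq2 1.42.0 on the recovered reads were alternatives and called 0 and 75 genes for the antibody, 0 and 298 for the knockout and 0 and 1030 for blockade. R 4.3.3, Python 3.11.15 and scipy 1.17.1 were used, and the fits were tested on simulated data. Antibody and knockout effects were also pooled. The knockout and blockade comparisons share the KO_IgG tumors, and the knockout and control comparisons share the WT_IgG tumors.

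Named were the 10 members, up to 4 most abundant genes of each of 16 lists and any gene of the first 7 lists past the adjusted threshold, the 8 genes most like Igkc and the 3 most abundant variable segments. Outside that rule, Ms4a1, Cd79b, Pax5, Txndc5, Cd22, Cd7 and Mal2 were picked with their values in view. Some genes of the lists are not reported here by name. The members and lists were chosen with earlier results of these data known. Alternatives were other pseudocounts, filters and scalings, a replicate block and leaving out each library.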

Additional observations from a re-analysis of the deposited data

Results flagged for a closer look

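In 60 groups of 4 to 6 values, the gap of the highest or lowest tumor to the next was compared with the group's range (Dixon's test at the 95% level). In independent, normally distributed values, chance would put about 1 in 20 groups past the limit. Whether that rate holds for these values was not tested. Here 16 values were past it, 9 of them from KO_IgG replicate 4. In that tumor Igkc was at 425 CPM, Ighm at 127 CPM, Ighg1 at 45.0 CPM, Ighg2b at 51.5 CPM, Ighg2c at 119 CPM, Jchain at 51.6 CPM and Mzb1 at 3.36 CPM, each above the other KO_IgG tumors. Its IgM share of 34.7% was also the highest of its group, as was its log2 ratio of Jchain to Cd79a reads, 8.80.

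WT_IgG replicate 2 was high for Ighg1 (4.45 CPM) and Ighg2c (18.1 CPM), and WT_IgG replicate 3 was the lowest of its group for Ighm, at 15.2 CPM. Among IgG tumors, replicate 2 was high for Ighg2c (2.02 CPM), while Ighg1 in replicate 3 (0.137 CPM) and Ighg3 in replicate 4 (0.374 CPM) were the only values above 0 in the group. KO_gdTCR replicate 2 had an IgM share of 64.8%, above the other KO_gdTCR tumors. These genes are not independent of each other, and values of a few reads are past the limit whenever the other tumors are at 0.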

How the results depend on the processing

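None of the 12 differences of shares and ratios passed the adjusted threshold under any alternative run, but these tests could hardly pass. With all tumors the smallest possible exact permutation p is 0.0286 for 4 against 4, 0.0159 for 4 against 5 and 0.00433 for 6 against 5. No single test at these limits passes adjustment over 12 tests on its own, and the replicate block allows still fewer arrangements. As 3 tumors against 4 cannot give an exact permutation p below 0.0571, leaving out tumors says nothing of stability in the knockout and blockade comparisons. Direction turned for the Jchain ratio with Mzb1 against Cd79b in its place (-0.18 for KO_IgG against WT_IgG, 0.30 for blockade), for IgM share in WT_IgG against IgG without the IgG subclass genes (0.91 points), and on leaving out libraries: IgM share on blockade ranged from -6.67 (without KO_gdTCR replicate 2) to 9.83 points, the Jchain ratio on blockade from -0.92 to 0.16 (without KO_IgG replicate 4), and IgA share in WT_IgG against IgG from -11.3 to 2.04 (without IgG replicate 4; 1.75 without WT_IgG replicate 2).

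Genes called depended on the tool. For the antibody, DESeq2 called 75 and leaving out libraries gave 0 to 6 (6 without IgG replicate 3). For the knockout, edgeR called 0, DESeq2 298, and leaving out libraries gave 0 to 7 (7 without WT_IgG replicate 3 or KO_IgG replicate 4). For blockade, DESeq2 called 1030, and leaving out libraries gave 0 to 2357 (2357 without KO_IgG replicate 4). With both experiments pooled, edgeR called 1, DESeq2 70, a term for the experiment 1, and single omissions gave 0 to 23 (23 without IgG replicate 3). For WT_IgG against IgG, a pseudocount of 0.5 gave 7, total reads 30, DESeq2 742, and leaving out libraries 0 to 45 (45 without IgG replicate 1). For the interaction, edgeR called 0, DESeq2 10, and leaving out libraries gave 0 to 2. The causes were not tested.

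With the replicate block the counts were 1 for the antibody, 0 for the knockout, 36 for WT_IgG against IgG and 0 for the interaction, Igha in the knockout comparison had a limma adjusted p of 0.0688, and the interaction for Igha was 0.31. The replicate numbers are only shared: correlations of deviations between libraries of 1 number ran from -0.17 to 0.09.

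On blockade, edgeR and DESeq2 gave -0.30 and -0.29 for Igkc, -0.37 and -0.37 for Ighm, -2.41 and -2.43 for Ighg1, -1.49 and -1.51 for Ighg2b, -0.25 and -0.26 for Ighg2c, and -0.86 and -0.86 for Jchain. Ighg1 was at -0.29, -0.027 and -0.14, and Ighg2b at -0.082, -0.023 and -0.14, with a pseudocount of 5, TMM and total reads, and Mzb1 at -0.013 with total reads. Leaving out libraries moved Ighg1 from -0.96 to 1.54, Ighg2b from -0.77 to 1.42, Ighg2c from -0.26 to 3.12, Jchain from -0.20 to 1.14 and Mzb1 from -0.24 to 0.80. In the knockout comparison it moved Ighm from -0.90 to 0.45, Ighg1 from -0.20 to 2.34, Ighg2c from -0.057 to 3.44 and Mzb1 from -0.20 to 0.61, with each lowest value without KO_IgG replicate 4, and for the antibody Mzb1 from -0.089 to 0.45. The interaction for Igha was 0.29 with edgeR, 0.28 with DESeq2 and -0.41 to 0.37 on leaving out libraries. The 18 libraries for likeness and correlation, and the spread without KO_IgG replicate 4, were chosen after seeing the data. Depth limits Cd79a, Ighg3 and Mzb1, with 1, 87 and 231 reads in all.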
